A study of Mus musculus with 6 samples.

Results

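Glycolysis and the transport of its substrate and product were followed by RNA-seq in depolarized cortical neurons, over 33 genes that encode glucose and monocarboxylate transporters, the enzymes from hexokinase to lactate dehydrogenase, the bifunctional PFKFB enzymes, and the proteins that carry pyruvate into mitochondria and gate its oxidation. The rule names the genes by their function and uses no measured value, and it takes 33 of the 43432 genes listed in each library. All 33 were matched, all had counts, and all received an adjusted p-value in each of the 3 comparisons. The neurons came from the cortex of wild-type C57BL/6 mouse embryos at E16.5, with males and females pooled, and were grown in vitro for 7 days. In all 3 groups, activity was silenced on day 6 by 1 μM tetrodotoxin, a sodium channel blocker, and 100 μM DL-AP5, an NMDA receptor blocker, and the next morning KCl was given at 55 mM. Cells were taken without KCl (0 h) and after 2 h or 6 h in it. Each group had 2 replicates, 6 libraries in all. Neurons at 0 h were thus silenced but not depolarized, and they give the background to which the KCl values are compared. The study calls the replicates biological, but the sources used here do not say whether they came from separate litters or culture days, so the p-values measure the spread between these samples.

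Neurons take up glucose mainly through GLUT3 (Slc2a3), while GLUT1 (Slc2a1) is the transporter of glia and of the blood-brain barrier. Glycolysis splits glucose into pyruvate, and its committed step, the phosphorylation of fructose 6-phosphate by phosphofructokinase, is stimulated by fructose 2,6-bisphosphate, which the PFKFB enzymes make and degrade. Pyruvate is either reduced to lactate by lactate dehydrogenase, which leaves or enters cells through the monocarboxylate transporters, or enters mitochondria through the pyruvate carrier and is oxidized by the pyruvate dehydrogenase complex (PDH), which the PDH kinases switch off and the PDH phosphatases switch on. Neuronal firing raises the demand for ATP, and several of these genes are known targets of hypoxia-inducible factor and of activity-regulated transcription in other settings.

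Library depth was similar in all groups, with 25959298 to 28573067 expected counts and 18767 to 19212 genes with a count per library. Summed over 10 neuronal markers, the level was 5272 to 5757 TPM (the abundance scaled to transcript length and to the sum of each library) in every library, with none of them at 0, while at 6 h against 0 h 5 of the 10 rose and 2 fell. Among them Tubb3 went from 1639 and 1679 TPM at 0 h to 666.1 and 794 TPM at 6 h and Gad1 from 158.9 and 156.2 to 386.4 and 354.6 TPM. Astrocyte markers were present, with a sum over 10 genes of 938.6 to 997.6 TPM at 0 h, 871.6 to 901.9 TPM at 2 h and 787.3 to 790.5 TPM at 6 h, and 5 of the 10 fell at 6 h against 0 h. Markers of the oligodendrocyte lineage (7 genes) summed to 125.7 to 149.4 TPM at 0 h, 96.2 to 113.6 TPM at 2 h and 122.6 to 133.3 TPM at 6 h, and those of dividing progenitors (7 genes) to 130.9 to 150.6 TPM. Markers of microglia summed to 5.0 to 15.4 TPM and those of endothelial and mural cells to 2.43 to 3.45 TPM, with 7 of the 9 vascular genes under 1 TPM in every library. In a bulk sample, fewer cells of a type cannot be told apart from less RNA per cell. The 2 h replicates differed most from each other, with an SD of the log2 difference of 0.429 over 12290 genes against 0.246 at 0 h and 0.214 at 6 h. That difference at 2 h followed the GC content of the genes, with a Spearman rho across genes of -0.744.

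To determine how this pathway responded to depolarization, each member was compared between time points with DESeq2's Wald test, adjusted over all genes tested. A member is said to have risen or fallen where its adjusted p was at most 0.05. At 2 h against 0 h, 8 members rose (24.2%, against 12.3% of all genes tested) and 3 fell (9.1%, against 14.2% of all genes). At 6 h against 0 h, 15 rose (45.5%, against 23.7% of all genes) and 7 fell (21.2%, against 21.7%). Between 2 h and 6 h, 7 rose (21.2%, against 24.1%) and 7 fell (21.2%, against 21.2%). With library totals as size factors, 4 rose and 3 fell at 2 h, and 8 rose and 8 fell at 6 h against 0 h. The median log2 fold change of the 33 members was 0.13 at 2 h, 0.26 at 6 h and 0.02 between them, beside 0.02, 0.0 and -0.01 over all genes tested. Most of these changes were small. Past 2-fold, 1 member rose and 0 fell at 2 h (3.62% and 5.94% of all genes, and likewise 0 by edgeR and at an unadjusted p under 0.05), 5 rose and 2 fell at 6 h (9.1% and 10.2%), and 4 rose and 2 fell between 2 h and 6 h (10.1% and 8.02%). The comparisons share libraries and are not independent of each other. The values of the groups did not overlap for 16 of the 33 members at 2 h, for 27 at 6 h against 0 h and for 20 between 2 h and 6 h. These were 48.5%, 81.8% and 60.6%, beside 65.0%, 84.8% and 77.5% of the 14668 genes with a mean normalised count of at least 10. The plot of all members by library shows the changes as isolated rows in transport, phosphofructokinase, enolase, PFKFB and PDH kinase genes, with paler rows for most glycolytic enzymes.

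**Figure D1:**
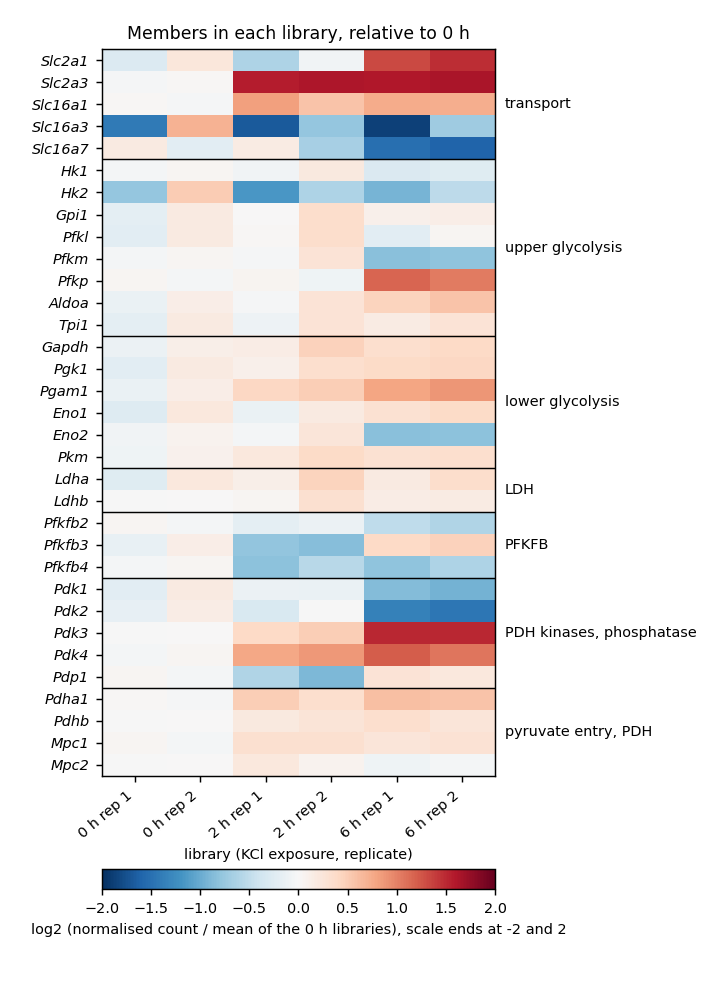
Each row is a gene, each column a library (KCl exposure in hours and replicate), and the color is the log2 ratio of the normalised count to the mean of the 0 h libraries, from blue (lower) to red (higher). Slc2a3 is red in all 4 KCl libraries, Slc2a1, Pfkp and Pdk3 are darkest at 6 h, Slc16a7 and Pdk2 are blue at 6 h, and Slc16a3 and Hk2 differ between the 0 h replicates.

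Some of these counts changed when 1 library was left out. The number of members higher at 2 h was 2 without 0 h replicate 1, 3 without 0 h replicate 2, 13 without 2 h replicate 1 and 5 without either 6 h replicate, and the number lower at 2 h was 5 without 2 h replicate 2. At 6 h against 0 h, 8 members rose without 0 h replicate 1, 9 without 6 h replicate 1 and 8 without 6 h replicate 2, and 5 in place of 2 members fell by more than 2-fold without 0 h replicate 1. Over 14 alternative fits, which included edgeR, other scalings, a GC correction and the removal of each library, 4 of the 11 calls at 2 h, 15 of the 22 calls at 6 h against 0 h and 10 of the 14 calls between 2 h and 6 h were kept in every fit. Those calls are named below as kept in all fits. The plot of fold changes gives the size and error of each change against 0 h.

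**Figure D2:**
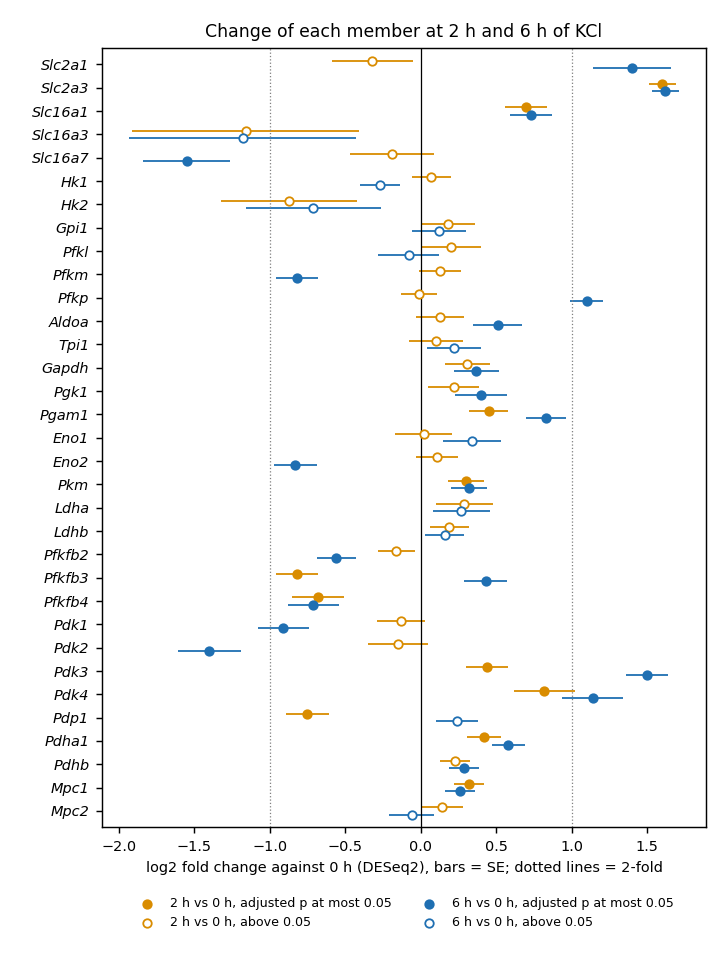
Points are DESeq2 log2 fold changes of each member against 0 h at 2 h (orange) and 6 h (blue) with their SE, filled where the adjusted p was at most 0.05, and the dotted lines mark a 2-fold change. Slc2a3 lies at 1.60 and 1.62, Slc16a7 and Pdk2 are lowest among the filled points at -1.55 and -1.4, and the widest bars belong to Slc16a3 and Hk2.

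Both glucose transporters rose after KCl, Slc2a3 by 2 h and Slc2a1 between 2 h and 6 h. Slc2a3 (ENSMUSG00000003153, GRCm38 chr6:122727809-122801640, minus strand) had 3292 and 3436 normalised counts at 0 h, 10042 and 10341 at 2 h, and the 6 h libraries had 10255 and 10482. Every KCl library stood far above both 0 h libraries, and the 2 h and 6 h libraries overlapped. Its normalised count rose 3.03-fold by 2 h (log2 1.60 ± 0.09 SE, adjusted p = 4.84e-64) and was 3.08-fold above 0 h at 6 h (log2 1.62 ± 0.09, adjusted p = 3.50e-66), and between 2 h and 6 h the log2 difference was 0.02 (95% interval -0.15 to 0.20). It was the member called at more than 2-fold at 2 h. Slc2a1 (ENSMUSG00000028645, chr4:119108711-119137983, plus strand) had 208.6 and 295.8 normalised counts at 0 h, 163.8 and 240.9 at 2 h, then 632.4 and 702.3 at 6 h. The 0 h and 2 h libraries overlapped, and both 6 h libraries were above them. It rose 2.64-fold at 6 h against 0 h (log2 1.4 ± 0.26, adjusted p = 4.29e-07) and 3.30-fold against 2 h (log2 1.72 ± 0.26, adjusted p = 6.44e-10). At 2 h its log2 change was -0.32 (adjusted p = 0.439, or 0.0484 without 2 h replicate 2). The called changes of both transporters were kept in all fits. On the TPM scale, Slc2a3 stood at 86.7 ± 7.95 (mean ± SD, n = 2) at 0 h and Slc2a1 at 8.03 ± 2.11, so Slc2a3 made up 91.6% of their sum, and its share was 97.3% at 2 h and 91.1% at 6 h. Slc2a3 stood at 203.2 ± 12.3 TPM at 2 h and 188.2 ± 6.99 at 6 h, a smaller rise than in counts. Count folds take no account of transcript length. The mean Slc2a3 transcript length estimated by RSEM was 2863 and 2643 bases at 0 h and 3445 and 3404 at 6 h (adjusted p = 0.109, limma). The summed vascular markers were lower in both 6 h libraries, at 2.68 to 2.82 TPM, than in both 0 h libraries, at 2.87 to 3.45 TPM. Of the 6 vascular genes tested at 6 h against 0 h, 2 rose and 1 fell, with Pecam1 at 0.41 and 0.45 TPM at 0 h and 0.85 and 0.89 TPM at 6 h, and Pdgfrb at 1.75 and 2.0 TPM and then 0.65 and 0.6 TPM. Their part in the rise of Slc2a1 was not tested.

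Promoter sequences were read from the RefSeq table for GRCm38.p6, as windows from 250 bases before to 50 bases after a start site, and 30 of the 33 members had at least 1 window (46 windows), all but Slc2a3, Slc16a7 and Pdp1. The windows printed here were chosen after the values were seen, for genes whose transcripts moved in opposite directions within a family, for Slc2a1, and for Ldha, which was not called in any comparison of the DESeq2 fit. Capitals mark the letters ACGTG or GCGTG on either strand (CACGT or CACGC when read on the other strand), the core of the hypoxia response element. CACGTG, the E-box, contains ACGTG on both strands and counts as 2 matches of it. Where a gene had several windows, the one with the outermost start is shown. The Slc2a1 window (chr4:119108495-119108794, plus strand) held 2 matches.
Slc2a1: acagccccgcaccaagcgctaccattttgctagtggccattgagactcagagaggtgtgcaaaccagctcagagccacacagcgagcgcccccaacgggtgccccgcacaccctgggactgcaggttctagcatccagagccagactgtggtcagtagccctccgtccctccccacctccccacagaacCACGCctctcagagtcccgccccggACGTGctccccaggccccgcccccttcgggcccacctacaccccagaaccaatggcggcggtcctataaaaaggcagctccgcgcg
ACGTG or GCGTG was present in 78.3% of the 46 member windows and in 43.8% of all 32851 windows of this length in the table. The median GC content of these windows was 62.2% for the members and 52.7% for all windows. ACGTG alone was present in 45.7% of the member windows (19.6% of all), CACGTG in 13% (7.15% of all), the cAMP response element TGACGTCA in 1 window, that of Ldha (1.79% of all), and the AP-1 site TGANTCA in 1 window, of Aldoa (7.81% of all), each searched on both strands. A match is a run of letters and not a measured binding site.

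The monocarboxylate transporters, which carry lactate, pyruvate and ketone bodies across the plasma membrane, moved in opposite directions. Slc16a7 (MCT2, the high-affinity neuronal form, ENSMUSG00000020102, chr10:125219270-125389465, minus strand) had 927.7 and 708.7 normalised counts at 0 h, 920.7 and 515.9 at 2 h, and the 6 h libraries had 288.9 and 268.9. The 0 h and 2 h values overlapped, and both 6 h libraries lay below all others. It fell 2.93-fold at 6 h against 0 h (log2 -1.55 ± 0.29, adjusted p = 4.89e-07) and 2.58-fold against 2 h (log2 -1.37 ± 0.29, adjusted p = 1.31e-05), and these calls were kept in all fits. Against 2 h the log2 change was -0.88, less than 2-fold, without 2 h replicate 1 and -1.71 without 2 h replicate 2. At 2 h its log2 change was -0.19 (adjusted p = 0.719, or 0.00559 without 2 h replicate 1). Slc16a1 (MCT1) had 728.8 and 704.5 normalised counts at 0 h, 1259 and 1062 at 2 h, then 1200 and 1180 at 6 h, with no overlap between the KCl libraries and 0 h. It rose 1.62-fold at 2 h (log2 0.70 ± 0.14, adjusted p = 1.27e-05) and 1.66-fold at 6 h (log2 0.73 ± 0.14, adjusted p = 1.75e-06), and both calls were kept in all fits. Slc16a3 (MCT4, the lactate exporter of glycolytic cells) was scarce and uneven, with 26.6 and 114.6 normalised counts at 0 h, 22 and 41.4 at 2 h, and the 6 h libraries had 19.3 and 43.0. Its groups overlapped, and its log2 change at 6 h was -1.18 ± 0.75 (adjusted p = 0.199). Without 0 h replicate 1 it was -1.88 (0.0393) and without 0 h replicate 2 it was 0.23 (0.88). By TPM, Slc16a7 was the largest of the 3 at 0 h with 57.4% of their sum and Slc16a1 the largest at 6 h with 70.7%. Astrocytes and oligodendrocytes express Slc16a1 as well. The astrocyte marker sum was lower at 6 h than at 0 h, when Slc16a1 was higher and Slc16a7 lower, and the oligodendrocyte lineage sum was lower in both 2 h libraries than at 0 h and overlapped with 0 h at 6 h. The part of cell composition in these changes was not tested.

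Hexokinase, the entry step, had a summed level of 159.7 and 170.5 TPM at 0 h, 133.2 and 166.4 TPM at 2 h, then 117.4 and 122.1 TPM at 6 h, with both 6 h libraries below the others. Hk1, the brain form, made up 97.9% to 99.3% of hexokinase TPM in every library. It had 6754 and 7071 normalised counts at 0 h, 6564 and 7943 at 2 h, then 5638 and 5831 at 6 h. Both 6 h libraries lay below the others. It fell 1.26-fold between 2 h and 6 h (log2 -0.34 ± 0.13, adjusted p = 0.024), a call lost when any 1 of the 0 h or 6 h libraries was left out (adjusted p 0.088 to 0.228). Against 0 h the log2 change at 6 h was -0.27 (adjusted p = 0.0809, or 0.0424 by edgeR and at most 7.92e-05 without either 2 h library), and it was also called with TMM factors, library totals and the 4-library fit. At 2 h it was 0.07 (adjusted p = 0.784, or 0.0417 without 2 h replicate 1). Hk2, the inducible form, had 106.5 and 257.9 normalised counts at 0 h and 80.9 to 126.9 in the KCl libraries. Its groups overlapped at both times (adjusted p = 0.154 at 2 h and 0.194 at 6 h), and the values turned on which 0 h library was kept. Without 0 h replicate 1 both passed the test (0.0209 and 0.0226), as did 2 h without 2 h replicate 2 (0.048), and without 0 h replicate 2 the log2 changes were -0.09 at 2 h and 0.06 at 6 h (0.955 and 0.943). Gpi1 (phosphoglucose isomerase) had 8090 and 10498 normalised counts at 0 h, 9300 and 11821 at 2 h, and the 6 h libraries had 9950 and 10190. Tpi1 (triosephosphate isomerase) had 6389 and 8313 at 0 h, 6885 and 8853 at 2 h, then 8271 and 8860 at 6 h. These 2 genes and Pfkl, the liver-type phosphofructokinase (1493 to 2215 normalised counts in all libraries), had overlapping groups and passed the test in no comparison, with log2 changes between -0.28 and 0.22, although Tpi1 passed at 6 h against 0 h with a GC correction (0.00819). Aldoa (aldolase A), at 8011 and 9617 normalised counts at 0 h, 8652 and 10632 at 2 h, then 12026 and 13116 at 6 h, rose 1.43-fold at 6 h against 0 h (log2 0.51 ± 0.16, adjusted p = 0.00351). That call was lost without 0 h replicate 1 or 6 h replicate 2, and with library totals as size factors (log2 0.26, adjusted p = 0.196). The rise of Aldoa from 2 h to 6 h (log2 0.38, adjusted p = 0.0347) was lost when any 1 library other than 2 h replicate 2 was left out. It was also lost by edgeR (0.0557), with TMM factors, with library totals (log2 0.30, 0.131) and in the 4-library fit.

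At phosphofructokinase, the committed step, 2 isoenzymes exchanged places between 2 h and 6 h. Pfkp, the platelet form (ENSMUSG00000021196, chr13:6579768-6648777, minus strand), had 3166 and 2980 normalised counts at 0 h, 3191 and 2895 at 2 h, then 6850 and 6346 at 6 h. The 2 h libraries spanned both 0 h values, and the 6 h libraries lay above all of them. It rose 2.15-fold at 6 h against 0 h (log2 1.10 ± 0.11, adjusted p = 2.58e-20) and 2.17-fold against 2 h (log2 1.12 ± 0.12, adjusted p = 1.42e-20). Its expected counts were not whole in 5 libraries so part of its reads was shared with other genes. It overlaps Pitrm1, and Pfkm overlaps Senp1, each on the other strand, and their reads can be told apart only where strand was used in counting. The same holds for Hk1, Aldoa, Tpi1, Gapdh, Pfkfb2, Pdha1 and Mpc1, which also overlap genes on the other strand. Pfkm, the muscle form, which is also abundant in brain (ENSMUSG00000033065, chr15:98092589-98132451, plus strand), had 5806 and 6148 normalised counts at 0 h, 5888 and 7234 at 2 h, and the 6 h libraries had 3345 and 3418. It was lower in both 6 h libraries than in any other. It fell 1.77-fold at 6 h against 0 h (log2 -0.82 ± 0.14, adjusted p = 1.67e-08) and 1.94-fold against 2 h (log2 -0.96 ± 0.14, adjusted p = 4.21e-11), and the calls of both genes were kept in all fits. At 2 h the log2 change of Pfkm was 0.13 (adjusted p = 0.547, or 0.00507 without 2 h replicate 1). The summed TPM of the 3 phosphofructokinases was 267.2 and 285.5 at 0 h, then 244.2 and 242.8 at 6 h, while Pfkp went from 26.4% ± 2.3 of it at 0 h to 53.9% ± 3.0 at 6 h and Pfkm from 59.5% ± 0.13 to 33.7% ± 1.1 (SD, n = 2). No test was run on these shares, and an exact permutation of 2 against 2 libraries could not go below p = 0.333. The promoter windows of the exchanging pair follow, Pfkp at chr13:6648722-6649021 on the minus strand with 4 matches and Pfkm at chr15:98092339-98092638 on the plus strand with 3, of which CACGTG gives 2.
Pfkp: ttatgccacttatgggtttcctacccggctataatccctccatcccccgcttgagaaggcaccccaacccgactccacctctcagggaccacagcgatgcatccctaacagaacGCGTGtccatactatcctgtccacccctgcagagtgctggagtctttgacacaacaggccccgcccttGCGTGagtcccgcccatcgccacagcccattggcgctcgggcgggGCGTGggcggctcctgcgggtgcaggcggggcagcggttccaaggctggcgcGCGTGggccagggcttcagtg
Pfkm: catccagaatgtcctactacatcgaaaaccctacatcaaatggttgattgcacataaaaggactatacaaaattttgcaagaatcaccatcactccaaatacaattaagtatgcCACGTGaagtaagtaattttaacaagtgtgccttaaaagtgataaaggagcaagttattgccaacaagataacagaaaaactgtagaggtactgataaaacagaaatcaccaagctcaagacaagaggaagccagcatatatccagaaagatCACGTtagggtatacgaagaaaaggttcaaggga
In these windows the Pfkp matches are all GCGTG and the Pfkm matches all ACGTG. The Pfkm window is the outermost of 4 in the table. The Pfkm windows at chr15:98108221-98108520 and chr15:98108306-98108605 each hold 1 GCGTG.

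The PFKFB enzymes, which set the level of the phosphofructokinase activator fructose 2,6-bisphosphate, gave 2 that fell at 2 h, Pfkfb3 and Pfkfb4, and at 6 h against 0 h Pfkfb3 rose and the other two fell. Pfkfb3 (ENSMUSG00000026773, chr2:11471433-11554077, minus strand), the form with the highest ratio of kinase to phosphatase activity, had 2603 and 3196 normalised counts at 0 h, 1674 and 1610 at 2 h, and the 6 h libraries had 3822 and 4013. The 3 groups did not overlap. It fell 1.77-fold at 2 h (log2 -0.82 ± 0.14, adjusted p = 1.08e-07) and rose 2.39-fold from 2 h to 6 h (log2 1.25 ± 0.14, adjusted p = 1.74e-17), and both calls were kept in all fits. Its 1.35-fold rise at 6 h against 0 h (log2 0.43 ± 0.14, adjusted p = 0.00565) was lost without 0 h replicate 1 or either 6 h library. That rise was also lost with library totals as size factors (log2 0.19, adjusted p = 0.313). Pfkfb4 had 752.8 and 790.5 normalised counts at 0 h, 438.4 and 525.2 at 2 h, then 444.1 and 502.3 at 6 h. It was lower in every KCl library than at 0 h, by 1.60-fold at 2 h (log2 -0.68 ± 0.17, adjusted p = 3.70e-04) and 1.63-fold at 6 h (log2 -0.71 ± 0.17, adjusted p = 1.04e-04). The 6 h call was kept in all fits, and the 2 h call was lost without either 0 h library (adjusted p 0.0553 to 0.0981). Pfkfb2, the heart and brain form, had 1154 and 1101 normalised counts at 0 h, 983.6 and 1037 at 2 h, and the 6 h libraries had 789.7 and 741.1. At 2 h its log2 change was -0.16 (adjusted p = 0.404). It fell 1.47-fold at 6 h against 0 h (log2 -0.56 ± 0.13, adjusted p = 4.41e-05), which was kept in all fits, and 1.32-fold from 2 h to 6 h (log2 -0.40 ± 0.13, adjusted p = 0.00494), which was lost when any 1 of the 0 h or 6 h libraries was left out (0.0559 to 0.198). By TPM, Pfkfb3 held 53.1% of the sum of the 3 genes at 0 h, 45.8% at 2 h and 70.2% at 6 h.

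**Figure D3:**
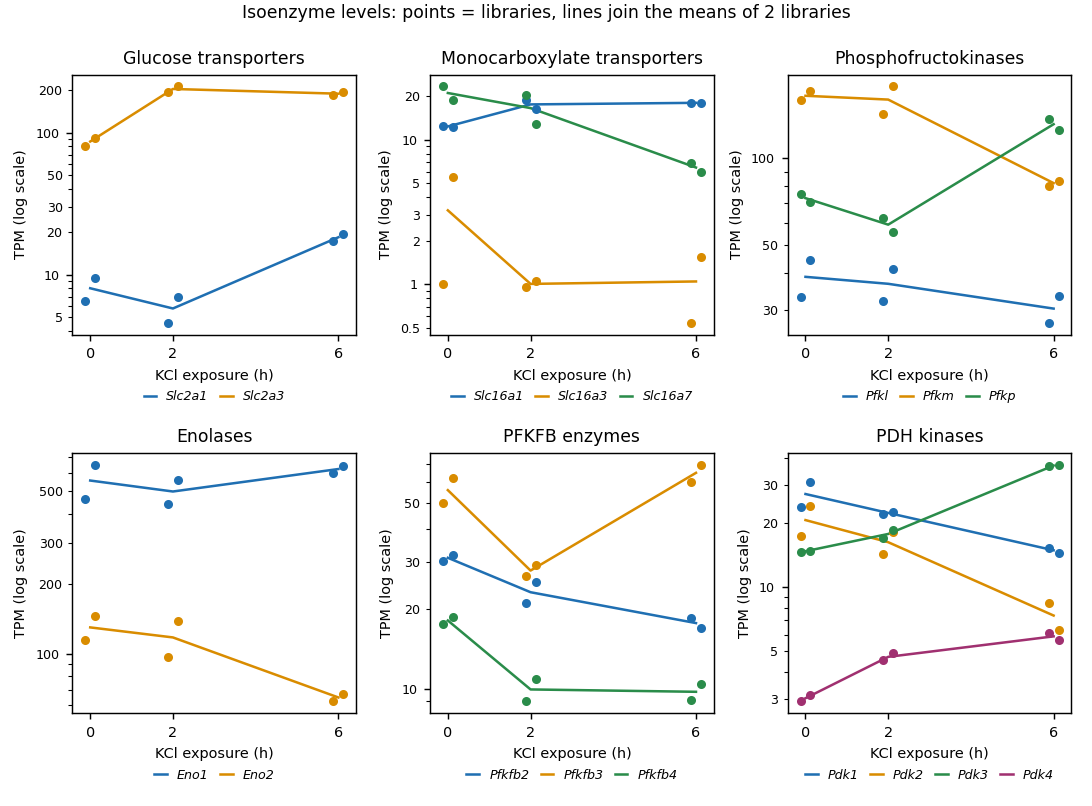
TPM on a log axis against KCl exposure in hours for 6 isoenzyme families, with a point per library and lines through the means of 2 libraries. The lines of Pfkp and Pfkm cross between 2 h and 6 h, as do those of Pdk3 and Pdk1, and Pfkfb3 dips to 27.8 TPM at 2 h and stands at 64.8 TPM at 6 h.

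Enzymes of the later steps, from glyceraldehyde 3-phosphate to pyruvate, moved by less than 2-fold. Gapdh, the most abundant member, had 36058 and 42279 normalised counts at 0 h, 43288 and 53824 at 2 h, then 49456 and 51659 at 6 h. It is often used as a reference for other transcripts. Its 1.29-fold rise at 6 h (log2 0.37 ± 0.15, adjusted p = 0.0348) was lost when any 1 of the 0 h or 6 h libraries was left out (adjusted p 0.0554 to 0.354) and by edgeR (0.0544), and at 2 h its log2 change was 0.31 (adjusted p = 0.123, or 0.00962 without 2 h replicate 1 and 8.49e-04 with a GC correction). Pgam1, phosphoglycerate mutase, rose most among them, from 6874 and 8253 normalised counts at 0 h to 10052 and 10658 at 2 h and to 13074 and 13893 at 6 h, with no overlap between groups. Its 1.78-fold rise at 6 h against 0 h (log2 0.83 ± 0.13, adjusted p = 1.51e-09) was kept in all fits. Its rise at 2 h (log2 0.45, adjusted p = 0.0032) was lost without 0 h replicate 1 or 2 h replicate 2 (0.0645 to 0.237), and that from 2 h to 6 h (log2 0.38, adjusted p = 0.0097) without 2 h replicate 1 or either 6 h library (0.0784 to 0.199). Gapdh and Pgam1 had counts that were not whole in all 6 libraries, so part of their reads was shared with other genes and their levels are less certain. With library totals as size factors the Gapdh log2 change at 6 h was 0.12 (adjusted p = 0.581), and its call was also lost with TMM factors. A replicate block added a call of Gapdh at 2 h. Under library totals Pgam1 kept its call at 6 h against 0 h (adjusted p = 1.46e-04). Its calls at 2 h and from 2 h to 6 h were lost (0.128 and 0.0686).

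Pgk1, phosphoglycerate kinase, rose 1.32-fold at 6 h against 0 h (log2 0.40 ± 0.17, adjusted p = 0.0354), from 10236 and 13468 to 15532 and 15803 normalised counts, and the call was lost when any 1 library other than 0 h replicate 2 was left out (adjusted p 0.0809 to 0.406) and by edgeR (0.0596). At 2 h it had 12707 and 14926 normalised counts. With library totals as size factors the log2 change of Pgk1 at 6 h against 0 h was 0.15 (adjusted p = 0.503). Pkm, pyruvate kinase, had 15836 and 17754 normalised counts at 0 h, 19428 and 21985 at 2 h, and the 6 h libraries had 20729 and 21262. It rose 1.23-fold at 2 h (adjusted p = 0.046) and 1.25-fold at 6 h (adjusted p = 0.0188), and each call was lost when any 1 of the 0 h or 6 h libraries was left out (0.156 to 0.524 at 2 h, 0.0737 to 0.321 at 6 h), the 2 h call also by edgeR (0.0509). Of the 2 enolases, Eno2 fell. Eno2, the neuron-specific enolase (chr6:124760053-124769673, minus strand), had 3151 and 3453 normalised counts at 0 h, 3225 and 3887 at 2 h, then 1844 and 1864 at 6 h, and both 6 h libraries lay below all others. It fell 1.78-fold at 6 h against 0 h (log2 -0.83 ± 0.14, adjusted p = 1.60e-08) and 1.92-fold against 2 h (log2 -0.94 ± 0.14, adjusted p = 1.69e-10), with both calls kept in all fits. Eno1, the ubiquitous form, had 11229 and 15577 normalised counts at 0 h, 12165 and 15101 at 2 h, and the 6 h libraries had 16473 and 17421. It passed the test in no comparison, with a log2 change of 0.34 at 6 h (95% interval -0.03 to 0.71, adjusted p = 0.136, or 0.0174 without 0 h replicate 2). With a GC correction it passed at 6 h against 0 h (3.32e-04) and against 2 h (7.49e-04), and it also passed in both with a replicate block. By TPM, Eno2 was 19.1% ± 1.2 of the enolase sum at 0 h and 9.45% ± 0.0094 at 6 h.

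On the TPM scale, which allows the levels of genes to be compared, Gapdh stood highest at 0 h with a mean of 2498 (2277 and 2719 in the 2 libraries). Ldha, Pkm, Eno1, Pgk1 and Aldoa followed at means of 711.6, 559.6, 554.8, 553.5 and 541.5, and the libraries of each met or overlapped those of the next, as did those of Ldhb, Tpi1, Gpi1 and Pgam1 at 408.1, 406.3, 377.6 and 351.6. The enzymes of the first and the committed step were lower, with Hk1 at 162.6 and Pfkm at 164.5, whose libraries also overlapped. The regulators were lower again, from 55.8 for Pfkfb3 to 3.03 for Pdk4, and the lowest members were Slc16a3, Pdk4 and Hk2, whose libraries overlapped. Summed over the 14 enzymes from hexokinase to pyruvate kinase, glycolytic transcripts took 5756 and 7072 TPM at 0 h, 5964 and 7351 at 2 h, then 6989 and 7406 at 6 h. The groups overlapped, so a change in the total was not separable from the spread between replicates. The 33 members together took 0.78% to 0.99% of all TPM in a library.

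Lactate dehydrogenase, which interconverts pyruvate and lactate, did not pass the test for either subunit gene. Ldha had 10855 and 14845 normalised counts at 0 h, 13886 and 17544 at 2 h, then 14594 and 16340 at 6 h, with overlapping groups and a log2 change of 0.27 at 6 h (95% interval -0.11 to 0.64, adjusted p = 0.263). With a replicate block Ldha was called higher at 6 h against 0 h, and with a block and GC correction together at both times. Ldhb had 5729 and 5747 normalised counts at 0 h, 5927 and 7143 at 2 h, then 6381 and 6457 at 6 h. Its 0 h libraries lay below the KCl libraries, by a log2 change of 0.19 at 2 h (adjusted p = 0.314, or 2.60e-04 without 2 h replicate 1) and 0.16 at 6 h (adjusted p = 0.314, or at most 0.0253 without either 2 h library), and it passed at both times with a GC correction. Ldha made up 63.2% of their TPM sum at 0 h, with 65.2% at 2 h and 65.3% at 6 h. The Ldha window (chr7:46845554-46845853, plus strand) held 7 matches, with each of its 2 CACGTG counted as 2 matches. That was the most among all members, but the ranking rests on this way of counting. A window of Hk1 held 5 matches with no CACGTG.
Ldha: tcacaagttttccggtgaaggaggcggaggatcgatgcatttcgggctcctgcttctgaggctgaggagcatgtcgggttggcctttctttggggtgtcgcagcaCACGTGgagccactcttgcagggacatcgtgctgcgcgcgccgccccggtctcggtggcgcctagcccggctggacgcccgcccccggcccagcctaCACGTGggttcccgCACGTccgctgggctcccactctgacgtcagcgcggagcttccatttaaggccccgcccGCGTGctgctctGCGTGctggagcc
CACGTG occurs in it 2 times and TGACGTCA 1 time.

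The PDH kinases, which phosphorylate and switch off pyruvate dehydrogenase, divided into a rising and a falling pair. Pdk3 (ENSMUSG00000035232, chrX:93764607-93832201, minus strand) had 375.5 and 376.7 normalised counts at 0 h, 495.3 and 528.3 at 2 h, and the 6 h libraries had 1067 and 1068. The groups did not overlap and the level was higher at each later time. It rose 1.36-fold at 2 h (log2 0.44 ± 0.14, adjusted p = 0.00767) and 2.84-fold at 6 h (log2 1.5 ± 0.14, adjusted p = 6.79e-27), and 2.09-fold between 2 h and 6 h (log2 1.06 ± 0.13, adjusted p = 5.91e-14). Both changes to 6 h were kept in all fits, and the 2 h call was lost when any 1 library other than 2 h replicate 1 was left out (adjusted p 0.0867 to 0.224). Pdk4 (ENSMUSG00000019577, chr6:5483351-5496309, minus strand), the form known to respond to fasting, had 132.3 and 139.0 normalised counts at 0 h, 232.7 and 247.1 at 2 h, then 313.5 and 286.1 at 6 h. It rose 1.77-fold at 2 h (log2 0.82 ± 0.20, adjusted p = 3.99e-04), a call lost without either 0 h library (0.0519 to 0.083), and 2.21-fold at 6 h (log2 1.14 ± 0.20, adjusted p = 8.76e-08), which was kept in all fits.

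Pdk2 (ENSMUSG00000038967, chr11:95026258-95041354, minus strand), widely expressed and abundant in brain, had 473.1 and 585.7 normalised counts at 0 h, 426.4 and 529.3 at 2 h, and the 6 h libraries had 207.6 and 194.7. The 0 h and 2 h libraries overlapped, and both 6 h libraries lay below them. It fell 2.63-fold at 6 h against 0 h (log2 -1.4 ± 0.21, adjusted p = 3.38e-10) and 2.38-fold against 2 h (log2 -1.25 ± 0.21, adjusted p = 3.37e-08). Pdk1, a known target of hypoxia-inducible factor, had 1593 and 2088 normalised counts at 0 h, 1690 and 1685 at 2 h, then 1005 and 957.3 at 6 h. It fell 1.88-fold at 6 h against 0 h (log2 -0.91 ± 0.17, adjusted p = 2.59e-07) and 1.72-fold against 2 h (log2 -0.78 ± 0.17, adjusted p = 1.26e-05), and all calls of Pdk1 and Pdk2 were kept in all fits. The summed TPM of the 4 kinases was 58.4 and 72.6 at 0 h, then 66.4 and 63.7 at 6 h, and within it Pdk3 went from 22.7% ± 3.2 to 56.8% ± 2.4, Pdk2 from 31.2% ± 2.2 to 11.3% ± 1.9, and Pdk1 from 41.4% ± 1.5 to 22.8% ± 0.3 (SD, n = 2). The windows of the kinase that rose most and of the one that fell most are Pdk3 (chrX:93832101-93832400, minus strand, 4 matches) and Pdk2 (chr11:95041322-95041621, minus strand, 1 CACGTG counted as 2 matches).
Pdk3: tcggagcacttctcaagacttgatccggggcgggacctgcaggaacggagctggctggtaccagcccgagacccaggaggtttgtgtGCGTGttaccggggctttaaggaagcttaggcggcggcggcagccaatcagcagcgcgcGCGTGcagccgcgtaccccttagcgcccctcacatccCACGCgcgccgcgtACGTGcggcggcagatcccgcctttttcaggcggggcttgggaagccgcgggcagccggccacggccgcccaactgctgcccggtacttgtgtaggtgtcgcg
Pdk2: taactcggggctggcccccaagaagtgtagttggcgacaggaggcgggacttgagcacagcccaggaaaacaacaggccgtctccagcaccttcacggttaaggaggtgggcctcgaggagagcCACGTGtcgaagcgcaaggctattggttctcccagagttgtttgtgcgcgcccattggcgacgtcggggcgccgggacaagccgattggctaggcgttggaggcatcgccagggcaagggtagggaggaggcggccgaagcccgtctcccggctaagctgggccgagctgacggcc
The plot of family composition shows the share of each isoenzyme by library.

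**Figure D4:**
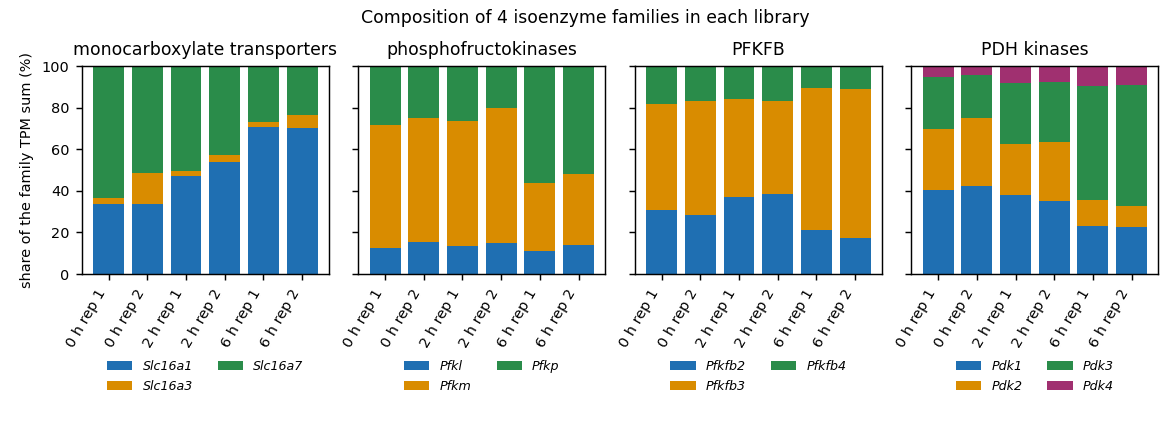
Bars give the share (%) of each gene in the summed TPM of its family in each library. In each of the 4 panels at least 1 gene has a larger share in both 6 h libraries than in the other 4, with Slc16a1 at 70.5% and 70.9%, Pfkp at 51.7% and 56.0%, Pfkfb3 at 68.6% and 71.8%, and Pdk3 at 55.1% and 58.5%.

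Pdp1, the phosphatase that reactivates PDH, dipped and returned. It had 1928 and 1832 normalised counts at 0 h, 1235 and 1005 at 2 h, then 2273 and 2173 at 6 h. It fell 1.68-fold at 2 h (log2 -0.75 ± 0.14, adjusted p = 3.01e-06) and rose 1.98-fold from 2 h to 6 h (log2 0.99 ± 0.14, adjusted p = 9.15e-11), and both calls were kept in all fits. At 6 h against 0 h its log2 difference was 0.24 (95% interval -0.04 to 0.52, adjusted p = 0.162, or at most 0.0203 without either 2 h library).

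Genes for pyruvate entry and the PDH core moved by at most 1.5-fold. Pdha1, the E1 alpha subunit that the kinases phosphorylate, had 6587 and 6388 normalised counts at 0 h, 9155 and 8230 at 2 h, then 9820 and 9620 at 6 h, and the KCl libraries lay above 0 h. It rose 1.34-fold at 2 h (log2 0.42 ± 0.11, adjusted p = 4.75e-04), a call lost without either 0 h library (adjusted p 0.0812 to 0.134), and 1.5-fold at 6 h (log2 0.58 ± 0.11, adjusted p = 2.00e-07), which was kept in all fits. Its counts were not whole in all 6 libraries. Pdhb, the E1 beta subunit, had 2807 and 2855 normalised counts at 0 h, 3247 and 3399 at 2 h, then 3592 and 3335 at 6 h, and rose 1.22-fold at 6 h (adjusted p = 0.0144). Mpc1, a subunit of the pyruvate carrier, had 2462 and 2326 at 0 h, 2994 and 2992 at 2 h, then 2817 and 2918 at 6 h, and rose 1.25-fold at 2 h (adjusted p = 0.00811) and 1.20-fold at 6 h (adjusted p = 0.0257). These 3 calls were each lost when any 1 of the 0 h or 6 h libraries was left out, and with library totals as size factors. Under library totals the log2 change at 6 h was 0.04 for Pdhb and 0.02 for Mpc1 (adjusted p = 0.79 and 0.927), and that of Mpc1 at 2 h was 0.16 (0.327). The 6 h call of Mpc1 was also lost with TMM factors and with a replicate block, and its 2 h call in the 4-library fit. The Pdhb call was also lost with a replicate block and GC correction together. At 2 h, Pdhb had a log2 change of 0.23 (adjusted p = 0.0894, or 0.026 without 2 h replicate 1, and it passed with a GC correction). Mpc2, the other carrier subunit (521.1 to 645.1 normalised counts in all libraries), passed the test in no comparison, with log2 changes of 0.14 at 2 h and -0.06 at 6 h, but was called lower between 2 h and 6 h with a GC correction.

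Transcript choice within members was followed through the effective length, the abundance-weighted mean length of a gene's transcripts as estimated by RSEM. Of 32 members with enough counts, 1 was called at 6 h against 0 h (0.525% of all genes tested), and 0 at 2 h (0.0356%) or between 2 h and 6 h (0.116%), where the unadjusted p was under 0.05 for 4 and 3 members. The called member was Pdk1, with 4766 and 4813 bases at 0 h, 4754 and 4718 at 2 h, then 4041 and 4167 at 6 h. Its log2 change was -0.22 ± 0.018 (adjusted p = 0.0469, limma), and no call was made when any 1 library was left out. Slc2a3 had 2863 and 2643 bases at 0 h, 3188 and 3069 at 2 h, then 3445 and 3404 at 6 h, a log2 change of 0.32 at 6 h that did not pass the test (adjusted p = 0.109).

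To place the members among related pathways, 145 other genes of glucose metabolism were counted in 11 lists, of which 143 had counts. At 2 h against 0 h, 15 rose and 23 fell among 130 with an adjusted p, and at 6 h 24 rose and 40 fell among 131. These counts also changed when 1 library was left out. At 2 h, 3 rose without either 0 h library, 23 without 2 h replicate 1 and 7 without either 6 h library, and 11 and 12 fell without 0 h replicates 1 and 2. At 6 h, 15 rose without either 0 h library and 14 without either 6 h library. With library totals as size factors, 5 rose and 29 fell at 2 h, and 14 rose and 53 fell at 6 h. The other glycolytic isoenzymes gave 2 that rose and 6 that fell at 6 h among 19 tested, hexose and monocarboxylate transporters 3 and 4 of 18, other PDH genes 1 and 4 of 9, the pentose phosphate pathway 0 and 2 of 10, glycogen metabolism 3 and 9 of 19, and gluconeogenesis 1 and 3 of 5. Hypoxia factors gave 3 that rose and 1 that fell of 10, hypoxia targets outside glycolysis 5 and 3 of 15, glucose sensing 2 and 2 of 5, the citric acid cycle 2 and 4 of 12, and the NADH shuttles 2 and 2 of 9. Over all genes tested, 12.3% rose and 14.2% fell at 2 h, and 23.7% rose and 21.7% fell at 6 h against 0 h.

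Of the genes in these lists, 33 were called at more than 2-fold in at least 1 comparison with a mean of at least 50 normalised counts, and the 20 with the largest changes are given. Txnip, the glucose-responsive arrestin that restrains glucose uptake, had 2059 and 2268 normalised counts at 0 h, 58.9 and 80.6 at 2 h, then 84.5 and 118.3 at 6 h, a fall of 31.0-fold and 21.3-fold. Its relative Arrdc4 fell 3.97-fold at 2 h and 3.0-fold at 6 h, and Mlxip (MondoA), the glucose-sensing factor that drives both genes in other cells, rose 2.79-fold at 6 h. Among transporters, Slc16a6 fell 10.1-fold and Slc2a6 3.65-fold at 6 h, and Slc16a13 fell 5.42-fold at 2 h and stood 2.04-fold below 0 h at 6 h. Among PDH genes, Pdpr, the regulatory subunit of the PDH phosphatase, fell 3.16-fold at 6 h and the lipoyl transferase Lipt2 2.69-fold. Among glycogen genes, Ppp1r3c, which targets protein phosphatase 1 to glycogen, fell 4.92-fold at 2 h and rose 6.45-fold from 2 h to 6 h, Epm2a (laforin) fell 3.15-fold and Ppp1r3d 2.43-fold at 6 h. Slc37a4 (the glucose 6-phosphate carrier of the endoplasmic reticulum), Pck2 (mitochondrial phosphoenolpyruvate carboxykinase) and Adpgk (ADP-dependent glucokinase) fell 2.63-fold, 3.08-fold and 2.64-fold at 6 h. Of hypoxia genes, the target Ndrg1 fell 4.75-fold, the factor Hif3a 4.40-fold and carbonic anhydrase Car12 2.74-fold at 6 h. The histone demethylase Kdm3a rose 3.34-fold at 6 h against 0 h, and Arnt, the partner of the hypoxia-inducible factors, and the prolyl hydroxylase P4ha2 fell 1.62-fold and 2.87-fold at 2 h and rose 2.63-fold and 2.46-fold from 2 h to 6 h, which left P4ha2 at 84.5 and 90.3 normalised counts beside 80.8 and 123 at 0 h. All of these changes had an adjusted p of at most 0.05.

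The replicates of a time point also differed in these genes. At 0 h, 25 of the 32 members with enough counts were higher in replicate 2 (78.1%), beside 45.2% of 12279 genes, and 11 of 13 hypoxia targets outside glycolysis were higher there too, with a median log2 difference of 0.33. Examples are Eno1, Ldha and Pgk1, at 15577, 14845 and 13468 normalised counts in replicate 2 and 11229, 10855 and 10236 in replicate 1, and, outside the members, Vegfa with 1322 and 808.7 and Bnip3 with 2218 and 1530. At 2 h, 23 of 32 members were higher in replicate 2 (71.9%, beside 56.0% of all genes), with 7 of 13 hypoxia targets, and at 6 h 22 of 32 (68.8%, beside 47.7%), with a median log2 difference of 0.03. The part of this replicate difference in the changes against 0 h was tested only by leaving out each library and by fits with a replicate block. The plot of replicate differences shows the order of the members.

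**Figure D5:**
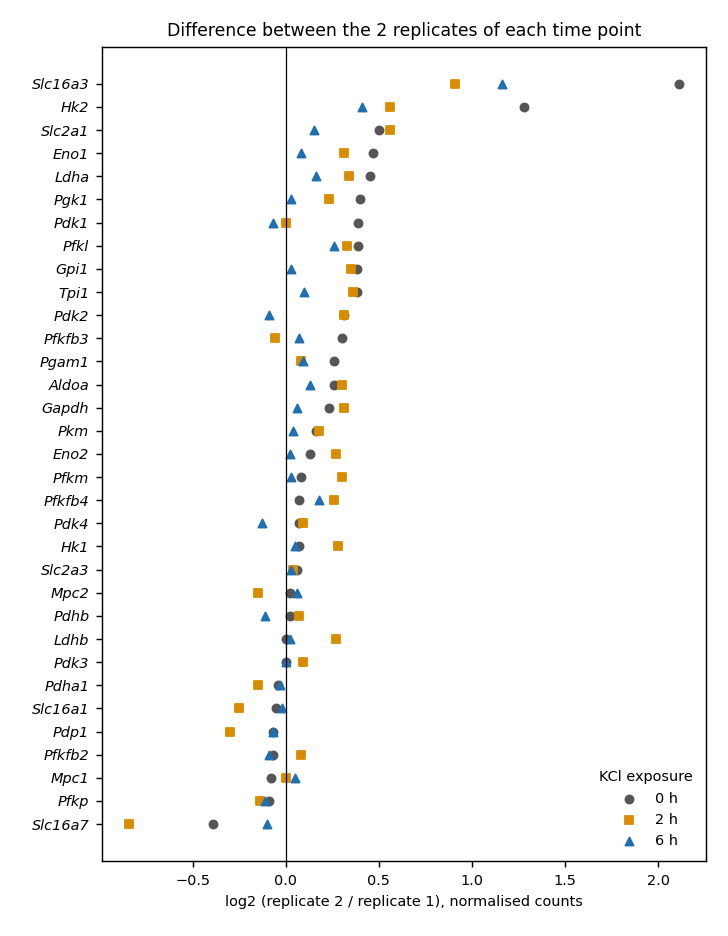
Points give the log2 ratio of replicate 2 to replicate 1 in normalised counts for each member at 0 h (circles), 2 h (squares) and 6 h (triangles), ordered by the 0 h value. Slc16a3 and Hk2 differ most at 0 h (2.11 and 1.28), and Slc16a7 differs most in the other direction, at 2 h (-0.84).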

How the data were processed

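Poly(A)-selected, stranded paired-end RNA-seq libraries (6) were trimmed by the authors with Trim Galore. The submitters' processing notes name RSEM 1.3.0, Bowtie2 2.2.9 and mm10, and the annotation release and strand setting are not given in the sources used here. The deposited files hold, per gene, RSEM expected counts (estimated counts, which need not be whole where reads are shared between genes), TPM, and the effective length in bases as a score. The FPKM values in the deposited files were not used, and neither were the bisulfite libraries.

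Expected counts were rounded and fitted with DESeq2 1.42.0 (Wald test, group only, all 6 libraries, Benjamini-Hochberg over all genes tested). "Normalised counts" are counts divided by DESeq2 size factors. Alternatives were edgeR 4.0.16, other scalings, a mean count of at least 10, a replicate block, a GC correction, the 4 libraries compared, and each library left out. Effective lengths were compared with limma 3.58.1 where the mean count was at least 100, a call being an absolute log2 change of at least 0.2. Analyses ran in R 4.3.3 and Python 3.11.15 and were tested on simulated counts. Positions and GC content came from GENCODE M21 (GRCm38). Symbols came from a separate list of gene names, which matched 42462 gene IDs. All 33 members were named, with values in every library for those past 2-fold or most abundant at their step. From the related lists, up to 20 genes past 2-fold with a mean normalised count of at least 50 were named, by size of change. The members and lists were chosen with earlier results of these data known.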

Additional observations from a re-analysis of the deposited data

How the results depend on the processing

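No called member changed direction under any alternative. Over all members and comparisons, 1241 values kept their side of the threshold, 93 lost the call and 52 gained it. Of the values under the threshold in both fits, 76 changed sign. With library totals as size factors, under which the median log2 change of 14668 genes was -0.156 at 2 h, -0.251 at 6 h and -0.075 between 2 h and 6 h in place of 0.011, -0.004 and 0.005, 4 members rose at 2 h and 8 at 6 h, 3 rose and 5 fell past 2-fold at 6 h, and 4 fell past 2-fold between 2 h and 6 h. The split of higher against lower calls at 6 h was then 8 to 8 in place of 15 to 7, and with TMM factors it was 12 to 8. The fit on 4 libraries gave 5 members that rose at 2 h. Restricting to the 24 members with whole counts, chosen after seeing the data, gave 5 at 2 h and 9 at 6 h. A test against a fold of 2 left 2 members higher and 0 lower at 6 h, and 0 higher and 0 lower between 2 h and 6 h. From counts in place of TPM, the Pdk3 share differed by 28.7 points between 6 h and 0 h, in place of 34.1. Leaving out 1 library gave 2 to 13 members higher and 2 to 5 lower at 2 h, 0 to 1 past 2-fold lower at 2 h, 8 to 16 higher and 2 to 5 past 2-fold lower at 6 h, and 0 to 0 changes in effective length at 6 h, which was also 0 with a count of at least 20 or a replicate block. Apart from fewer genes or samples, the causes were not tested. With the replicate number as a block, 9 members rose and 3 fell at 2 h, 16 and 7 at 6 h, and 8 and 7 between them. The block added calls for Eno1 at 6 h against both 0 h and 2 h, Ldha at 6 h and Gapdh at 2 h, all higher, lost that of Mpc1 at 6 h against 0 h, and changed no other member's call. The labels do not say that equal numbers share a culture, and the correlations of their deviations were mixed, at 0.281, -0.002 and 0.152 over 12290 genes, so the samples were not treated as paired. With 2 libraries a group, a low member such as Slc16a3 (19.3 to 114.6 normalised counts) allowed a log2 change to be known only within an SE of 0.75.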

Other observations

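Beyond the members and the 20 named genes, several relatives in the related lists changed by less than 2-fold, and those given here were chosen after their values were seen. At 6 h against 0 h, Aldoc, the aldolase of astrocytes, fell by 0.56 on the log2 scale and Pcx, the anaplerotic pyruvate carboxylase, by 0.58. Bpgm, which makes 2,3-bisphosphoglycerate, rose by 0.35 at 2 h and 0.85 at 6 h. Bsg, the chaperone of the monocarboxylate transporters, rose by 0.34 and Pdhx, a structural subunit of the pyruvate dehydrogenase complex, by 0.52 at 6 h. Hif1a differed by 0.46 between 2 h and 6 h (DESeq2 adjusted p = 0.0383, edgeR 0.0661).

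A pair of genes of liver and islet glucose handling had no count at 0 h and counts in every KCl library. Slc2a2 (GLUT2) was at 0 in both 0 h libraries, with 115.8 and 65.1 normalised counts in the 2 h and 13.9 and 6.45 in the 6 h libraries. G6pc2, the islet glucose 6-phosphatase subunit, was also at 0 in both 0 h libraries, with 14 and 7.24 normalised counts in the 2 h and 17.1 and 8.6 in the 6 h libraries. Neither was named by the rule for related genes, and no fold change is given against a group at 0. The Slc2a2 level was highest in both 2 h libraries and lower in both 6 h libraries.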
